A study of Homo sapiens with 24 samples.

Results

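Of the 24 CUT&RUN libraries of the series, 6 were compared here, namely 3 made with an antibody against the nuclear receptor TR4 and 3 made with an antibody against the HA epitope, all from clone TB of HUDEP-2 cells. HUDEP-2 is an established human erythroid progenitor line, and the cells were grown for expansion with stem cell factor, erythropoietin, dexamethasone and doxycycline. In clone TB, TR4 (gene NR2C2) carries FLAG and MYC epitopes and BCL11A carries HA and MYC epitopes, so both groups of libraries came from the same edited cells and the HA antibody reads BCL11A through its tag. Clone TB is 1 edited clone, and the labels do not say whether its 3 libraries per antibody are separate cultures. The p-values therefore reflect library-to-library spread alone, which may be technical. The TR4 antibody binds the protein itself and the HA antibody binds an added tag. Within this contrast the protein and the antibody cannot be told apart. The other libraries used for reference were TR4 and MYC antibodies in clone T (TR4 tagged), HA and MYC antibodies in clone B (BCL11A tagged), MYC in clone TB, and IgG in each clone.

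TR4 is an orphan nuclear receptor that binds DNA as a dimer, often with its relative TR2 (gene NR2C1). Its sites are direct repeats of the half-site AGGTCA, and the repeat with a spacer of 1 base is called DR1. BCL11A is a zinc finger repressor that binds TGACCA and recruits the NuRD corepressor complex. In adult erythroid cells both proteins are known as repressors of the fetal γ-globin genes HBG1 and HBG2.

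CUT&RUN releases DNA around a bound protein with a tethered nuclease, and the deposited data are 1 peak list per library. The TR4 lists held 11488, 11510 and 6944 peaks and the HA lists 24078, 27021 and 15163 peaks, so every TR4 list was shorter than every HA list (exact permutation test, two-sided, p = 0.1, the smallest that 3 libraries against 3 allow). The number of reads behind each list was not analysed here, and depth is therefore unknown. With both antibodies replicate 3 had the shortest list. Peaks in regions with an IgG peak made up 1.14%, 1.21% and 1.61% of the TR4 lists and 1.19%, 1.15% and 1.87% of the HA lists, and were left out. Whether peaks were called against IgG, and whether the IgG lists were made with the same settings, is given in none of the sources at hand, so these shares and the folds rest on that. As a check on the cell type, TR4 regions lay at 2 of 25 red cell membrane genes, 1 of 20 B lymphoid genes, 3 of 20 neuronal genes and 0 of 390 olfactory receptor genes. HA regions lay at 13 of 25, 2 of 20, 3 of 20 and 3 of 390 genes of the same lists. Of all protein-coding genes, 27.9% had a TR4 region and 38.8% an HA region, so the membrane genes stood below that share with TR4 (8.0%) and above it with HA (52.0%).

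TR4 peaks lay at the starts of genes more often than HA peaks of the same cells. The share of peaks within 1 kb of the 5′ end of a protein-coding gene was 48.7%, 50.9% and 50.9% in the TR4 libraries, and 33.2%, 32.7% and 32.1% in the HA libraries. The groups did not overlap, and the means were 50.2% ± 1.29 for TR4 libraries and 32.6% ± 0.543 for HA libraries (SD, n = 3 each; two-sided exact permutation test, p = 0.1, adjusted p = 0.138 over 11 library measures). At gene ends without a 5′ end nearby the gap was small, with 10.9% ± 0.416 of TR4 peaks and 9.25% ± 0.0705 of HA peaks. Away from gene ends the order turned. Inside genes lay 23.3% ± 0.697 of TR4 peaks and 32.7% ± 0.321 of HA peaks, and outside genes 18.1% ± 0.789 of TR4 peaks and 27.2% ± 0.653 of HA peaks (SD, n = 3 each). Peaks more than 10 kb from any 5′ end made up 34.1% ± 1.36 of TR4 lists and 49.1% ± 1.02 of HA lists. Each of these measures had no overlap between the antibodies and the smallest possible p of 0.1 (exact permutation test). When only the 6944 strongest peaks of every list by −log10 q were kept, the length of the shortest list, the gap in the share at either gene end was 12.04 percentage points in place of 18.6.

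**Figure D1:**
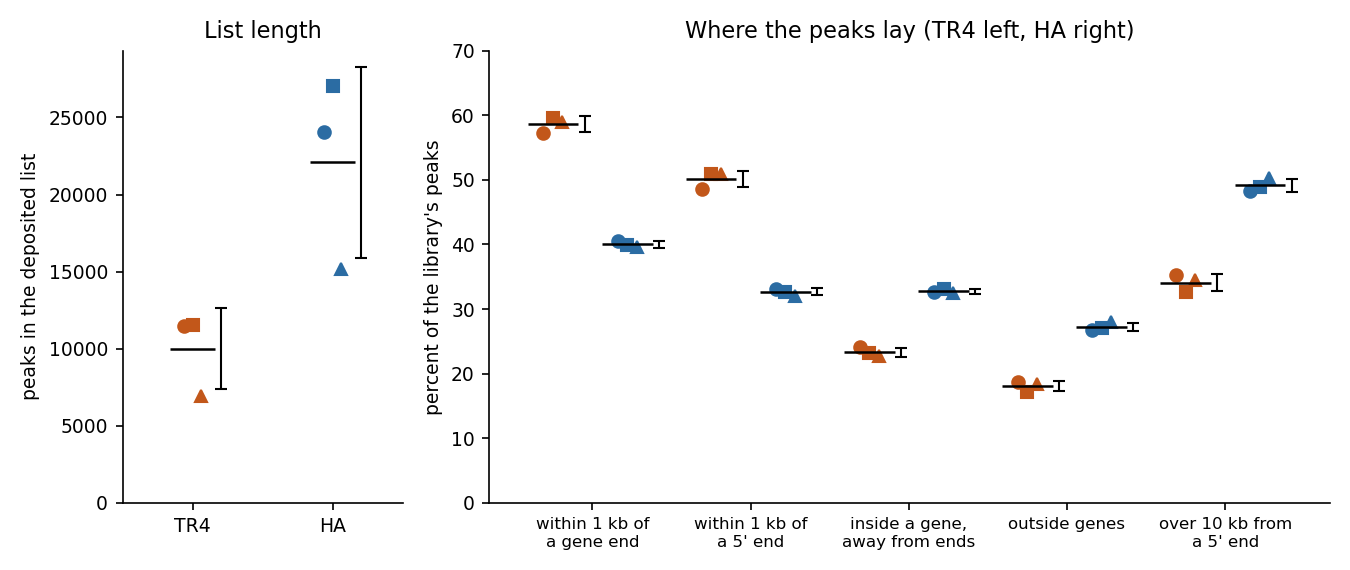
List length (left, number of peaks) and the percent of each library's peaks at 5 kinds of position (right) for the TR4 libraries (orange, left of each pair) and the HA libraries (blue) of clone TB. Symbols are replicates 1 (circle), 2 (square) and 3 (triangle), lines are means and bars are SD (n = 3). TR4 shares within 1 kb of a 5′ end lie near 50% and HA shares near 33%.

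Close to a start site the median position of summits overlapped between the antibodies, while the share upstream of the start did not. The median position of summits within 1 kb of a 5′ end was −77, −76 and −85 bases with TR4 and −68, −65 and −80 bases with HA, where negative is upstream. These ranges overlapped (exact permutation test, p = 0.3). Compared by replicate number, the TR4 median lay farther upstream each time (exact sign-flip test, p = 0.25, the smallest possible). The share of those summits upstream of the start was 77.2%, 77.2% and 80.4% with TR4 and 73.0%, 70.3% and 76.3% with HA, with no overlap (exact permutation test, p = 0.1). Peak width also overlapped, with medians of 140 ± 5.30 bases for TR4 libraries and 136 ± 5.86 bases for HA libraries (SD, n = 3 each; exact permutation test, two-sided p = 0.4). With 6944 peaks per list the TR4 median was lower by 50.5 bases (difference −50.5; exact permutation test, p = 0.3). The same contrast drawn across clones, TR4 antibody in clone T against HA antibody in clone B, gave a gap of 13.6 percentage points in the 5′ share, against 17.5 inside clone TB. The difference between the 2 contrasts did not pass for any of the 11 measures (exact permutation over 400 labellings, lowest p = 0.08, adjusted p = 0.321).

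Most TR4 regions of clone TB were also HA regions, and about as many HA regions had no TR4 peak as had one. Peaks sharing a base were merged across the series, and a region counted as TR4 or HA when 2 or 3 libraries of that antibody held a peak in it. Of 38976 regions with a TR4 or HA peak, 1041 (2.67%) were TR4 regions with no HA peak, 6710 (17.2%) were regions of both and 9022 (23.1%) were HA regions with no TR4 peak. The shared regions were 79.3% of the TR4 regions and 37.4% of the HA regions. A peak in 3 of 3 TR4 libraries and 0 of 3 HA libraries was found at 408 regions (1.05%), and the opposite at 3971 (10.2%). These counts rest on list length. With 6944 peaks per list, TR4 regions without HA numbered 2284 (16.1%), shared regions 3024 (21.3%) and HA regions without TR4 2513 (17.7%), and the shared ones were 49.9% of TR4 regions and 48.6% of HA regions. Single libraries also moved them: TR4 regions without HA numbered 443 without TR4 replicate 1 and 441 without TR4 replicate 2, and HA regions without TR4 numbered 4498 without HA replicate 1 and 4353 without HA replicate 2. Shared regions numbered 4438 without TR4 replicate 2.

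Regions of both antibodies, drawn with all peaks, lay at starts more often than regions of 1 antibody, which were more often distal. A 5′ end lay within 1 kb of 38.5% of TR4 regions without HA, 59.3% of shared regions and 21.2% of HA regions without TR4. Merging more peaks makes a region wider, and a wider region more readily reaches a start, so distance was also measured from the summit. With their summit over 10 kb from any 5′ end lay 42.7% of TR4 regions without HA, 25.6% of shared regions and 58.3% of HA regions without TR4. Either gene end lay within 1 kb of 46.1%, 68.5% and 27.8% of these classes. With 6944 peaks per list these shares were 61.6%, 72.1% and 31.9%. The order held, but TR4 regions without HA then stood closer to shared regions. Distance from the summit was not measured at equal length. Absence of the other antibody's peak did not always mean distance from one: 25.0% of TR4 regions without HA had an HA peak within 500 bases in a neighbouring region, and 8.73% of HA regions without TR4 had such a TR4 peak.

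With all peaks, the strength of a TR4 peak told little of whether HA was there, while strong HA peaks were far more often shared than weak ones. Strength is the percentile of the authors' fold enrichment within a list. With regions put in 10 equal bins by strength, the share of TR4 regions that were HA regions was 76.1% in the weakest bin, 85.8% in bin 9 and 83.2% in the strongest. For HA regions the share that were TR4 regions was 16.2% in the weakest bin and 70.3% in the strongest, and it was higher in each successive bin. The strongest bin lay at a gene end in 76.8% of cases for TR4 regions and in 54.1% for HA regions. The HA lists were the longer ones, and the bins were not drawn at equal list length. There, 49.9% of TR4 regions and 48.6% of HA regions were shared.

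Where all 6 libraries had a peak, they differed by antibody in where the summit stood and in which regions were strong. At these 3445 regions the median distance between the summits of 2 libraries was 17 to 21 bases between TR4 libraries, 29 to 40 bases between a TR4 and an HA library, and 22 to 28 bases between HA libraries. Every pair of unlike antibodies stood farther apart than every pair of like ones (exact permutation of the antibody labels, one-sided, p = 0.1, the smallest possible). The order of fold enrichments over the same regions had a Spearman's rho of 0.78 to 0.87 between TR4 libraries, 0.084 to 0.149 between a TR4 and an HA library, and 0.67 to 0.77 between HA libraries. These are correlations across regions, which are not replicates, and are given as a description. Of the 6710 shared regions, 16.5% of the top 10% by TR4 were also in the top 10% by HA. Over all regions the Jaccard index, shared regions over regions in either list, averaged 0.486 between TR4 libraries, 0.264 across antibodies and 0.437 between HA libraries, an index that unequal list lengths hold down.

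**Figure D2:**
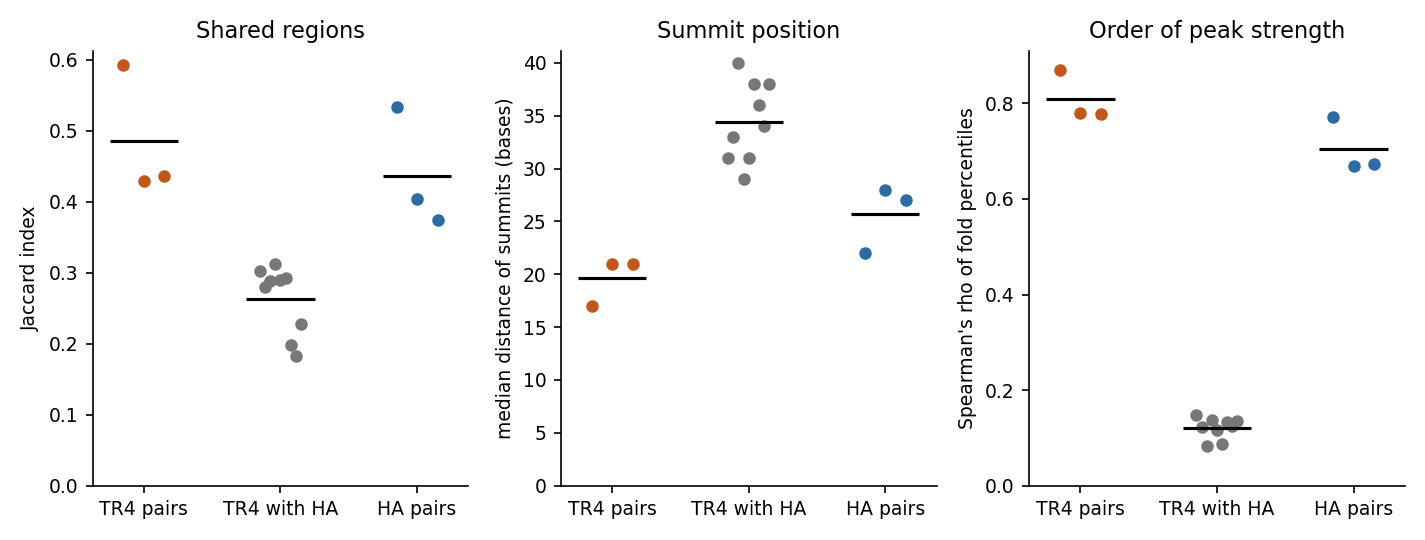
Each point is 1 pair of the 6 libraries: TR4 with TR4 (orange), TR4 with HA (grey) and HA with HA (blue), with lines at the means. The panels show the Jaccard index of regions, the median distance between summits in bases and Spearman's rho of fold percentiles, the last 2 at the 3445 regions with a peak in all 6 libraries; rho across antibodies stays at or below 0.149.

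The strongest regions of TR4 without HA were mostly promoters, and the strongest of HA without TR4 were mostly not. Of the 10 TR4 regions without HA that ranked highest by fold percentile, 7 lay within 1 kb of a 5′ end, against 6 of the 10 highest shared regions and 2 of the 10 highest HA regions without TR4. The start of RAB11FIP2, a Rab effector of vesicle recycling (region on chromosome 10, 118046575 to 118047139, GRCh38), had TR4 fold enrichments of 218, 245 and 207 and no HA peak. At SNRPF, a core subunit of spliceosomal particles (chromosome 12, 95858720 to 95859424), they were 246, 254 and 179. The region that overlaps TIMM8B and SDHD, the last of which encodes a subunit of respiratory complex II (chromosome 11, 112086649 to 112087295), had TR4 folds of 154, 170 and 98.4. MRPL43, a mitochondrial ribosomal protein gene (chromosome 10, 100987027 to 100987651), had 128, 167 and 93.2. At all 4 regions every TR4 library of clone TB had a strong peak and no HA library of that clone had any. In clone B, 2 of the 3 HA libraries had a peak at the SDHD region and 1 of 3 at each of the other regions.

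Among HA regions without TR4, the region inside SLC37A1 (chromosome 21, 42546947 to 42547772) had HA folds of 67.6, 97.8 and 56.0 and stood 47325 bases from the nearest 5′ end. The region inside EPAS1, the gene of a hypoxia-inducible factor (chromosome 2, 46339992 to 46340504), had HA folds of 53.2, 61.8 and 46.0, and it stood 42585 bases from the gene's start. The region at the start of PTPN18, a tyrosine phosphatase gene (chromosome 2, 130355684 to 130356281), had 43.9, 55.5 and 48.3. The gene table used has no exons, so whether these regions lie in exons, introns or UTRs is not given. The strongest shared region at a start was that of KMT5A, a histone H4 methyltransferase (chromosome 12, 123383326 to 123384205), with TR4 folds of 122, 133 and 47.1 and HA folds of 143, 178 and 143. No test was run between folds of different lists.

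Promoter sequences of 9 genes show the letters at starts with these peaks. They are the 100 bases before the start (RefSeq, GRCh38.p14, positions counted back from the start, the base before it being −1), with matches to DR1 allowing 2 mismatches, to the half-site AGGTCA, to the GATA motif AGATAA or to the NF-Y motif CCAAT in capitals, on either strand. The genes were chosen after their values were seen. The first 5 had TR4 regions without HA, the next 3 shared regions and the last an HA region without TR4.
RAB11FIP2, chr10:118046942-118047041, minus strand: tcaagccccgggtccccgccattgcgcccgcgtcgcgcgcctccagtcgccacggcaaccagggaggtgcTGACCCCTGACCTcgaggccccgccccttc
SNRPF, chr12:95858852-95858951, plus strand: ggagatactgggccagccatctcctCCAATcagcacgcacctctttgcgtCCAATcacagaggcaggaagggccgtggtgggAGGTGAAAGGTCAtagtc
TMEM248, chr7:66921125-66921224, plus strand: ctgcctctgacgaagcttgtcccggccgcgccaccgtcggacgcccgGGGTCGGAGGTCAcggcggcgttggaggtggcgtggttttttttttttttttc
RPL34, chr4:108620476-108620575, plus strand: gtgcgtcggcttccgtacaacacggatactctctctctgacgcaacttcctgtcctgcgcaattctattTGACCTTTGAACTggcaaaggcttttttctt
MRPL43, chr10:100987498-100987597, minus strand: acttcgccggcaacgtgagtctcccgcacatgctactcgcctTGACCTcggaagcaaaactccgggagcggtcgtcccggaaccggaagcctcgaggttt
FECH, chr18:57586703-57586802, minus strand: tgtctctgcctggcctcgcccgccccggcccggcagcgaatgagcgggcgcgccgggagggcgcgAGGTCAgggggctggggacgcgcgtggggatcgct
RPLP0, chr12:120201112-120201211, minus strand: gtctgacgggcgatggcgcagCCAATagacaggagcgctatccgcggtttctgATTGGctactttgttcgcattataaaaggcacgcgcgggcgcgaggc
EPOR, chr19:11384315-11384414, minus strand: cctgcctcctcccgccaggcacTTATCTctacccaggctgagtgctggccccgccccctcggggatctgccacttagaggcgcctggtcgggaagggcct
ADD1, chr4:2843744-2843843, plus strand: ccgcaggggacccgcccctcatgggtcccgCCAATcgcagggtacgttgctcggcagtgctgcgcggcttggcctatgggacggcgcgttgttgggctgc

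In RAB11FIP2 the DR1 match ran from −30 to −18 with 1 mismatch, and the median TR4 summit stood at −15. In SNRPF it ran from −18 to −6 with 1 mismatch and the TR4 summit stood at −22. The TMEM248 match, from −53 to −41 with 2 mismatches, had the TR4 summit at −52, within the match. TMEM248 is a membrane protein gene whose region (chromosome 7, 66920356 to 66921291) had TR4 folds of 145, 175 and 109. RPL34, a protein of the large ribosomal subunit, had its match from −31 to −19 with 1 mismatch and TR4 folds of 54.7, 36.7 and 35.4, but its TR4 summit stood at +2, just past the printed stretch. MRPL43 had its half-site from −58 to −53 and its TR4 summit at −9. FECH, the enzyme that inserts iron into heme, held 1 half-site at −35 to −30, with the TR4 summit at −23 and the HA summit at −19. In RPLP0, a ribosomal stalk protein gene, 2 CCAAT matches flanked the summits, which stood at −70 with TR4 and −74 with HA. The region at that start had TR4 folds of 26.8, 28.0 and 13.8 and HA folds of 23.1, 33.8 and 10.6. The EPOR region at the printed sequence had TR4 folds of 19.7 and 15.6 in replicates 1 and 2, with summits at −43.5, and HA folds of 49.0, 52.5 and 57.7, with summits at −45. ADD1, an adducin of the membrane skeleton, had HA folds of 4.63, 5.57 and 4.15 there and no TR4 peak. A match is a description of the letters and does not show which protein bound there.

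Over all promoters with a sequence, DR1 and the half-site were most frequent in windows with a TR4 region and no HA peak, while shared windows held the half-site less often than windows with no peak of either antibody. Promoter windows of 300 bases were at hand for 15843 of the 20037 protein-coding genes (79.1%). DR1 with at most 1 mismatch was found in 3.41% of the 176 windows with a TR4 region and no HA peak, 0.425% of the 3767 windows with both regions, 0 of the 1188 windows with an HA region and no TR4 peak, 0.289% of the 8657 windows with no peak of either antibody, and 0.322% of all windows. The half-site, which each DR1 match with at most 1 mismatch holds, was found in 15.3%, 10.1% and 7.49% of the same 3 classes, in 13.6% of windows with no peak and in 11.7% of all. These are shares of whole windows, which a region can cover in part, and were not tested. Of 9 windows under the 10 strongest TR4 regions without HA, 7 held a half-site and 3 held DR1, and some of these windows overlap each other. Of 8 windows under the 10 strongest shared regions, 4 held a half-site and 0 held DR1. Of 2 windows under the 10 strongest HA regions without TR4, 0 held either. The BCL11A motif TGACCA, which shares the letters TGACC with the half-site's other strand, was found in 6.82%, 8.71% and 7.49% of the classes and in 9.32% of all windows. The ETS motif CCGGAAG was found in 46.6%, 26.8% and 18.01% of the classes and in 14.2% of all windows, and the NF-Y motif CCAAT in 28.4%, 50.4% and 32.5% and in 36.4% of all. GC content differed little between the classes, at 64.4%, 65.9% and 65.6%, and was 61.4% over all windows.

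At the summits themselves the half-site separated the antibodies. Within 50 bases of summits inside promoter windows, 5.34%, 5.21% and 7.30% of TR4 summits and 3.17%, 3.17% and 3.31% of HA summits had a half-site. In an equal stretch elsewhere in the same promoters the shares were 2.91% ± 0.230 for TR4 and 3.37% ± 0.245 for HA (SD, n = 3 each). The groups did not overlap at the summit (exact permutation test, two-sided, p = 0.1, adjusted p = 0.2 over 10 motifs). DR1 with at most 2 mismatches lay at 1.95% ± 0.503 of TR4 summits and 0.571% ± 0.0387 of HA summits. The BCL11A motif lay at 3.32% ± 0.301 of TR4 summits and 3.79% ± 0.219 of HA summits, with overlap between the groups, and in 2.69% and 2.24% of the stretches elsewhere. The NF-Y motif overlapped between the antibodies with all peaks, at 31.1% ± 0.741 of TR4 summits and 31.3% ± 1.11 of HA summits, against 14.1% and 12.8% in the stretches elsewhere. With 6944 peaks per list its groups did not overlap, and TR4 minus HA was −5.40 points (two-sided exact permutation test, p = 0.1). The ETS motif lay at 13.9% ± 0.340 of TR4 summits and 10.9% ± 0.486 of HA summits. The GC box CCCGCCC lay at 41.7% ± 1.82 and 36.9% ± 0.669, and neither of these pairs overlapped. The GC box pair did overlap with 6944 peaks per list (difference 3.81 points; exact permutation test, p = 0.2). With all peaks, the AP1 motif TGANTCA was the one motif without overlap that was lower with TR4. It lay at 0.887% ± 0.155 of TR4 summits and 1.30% ± 0.0685 of HA summits (exact permutation test, p = 0.1). The motif share was planned for a whole genome, and its limit to promoter windows was set after the files were seen.

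**Figure D3:**
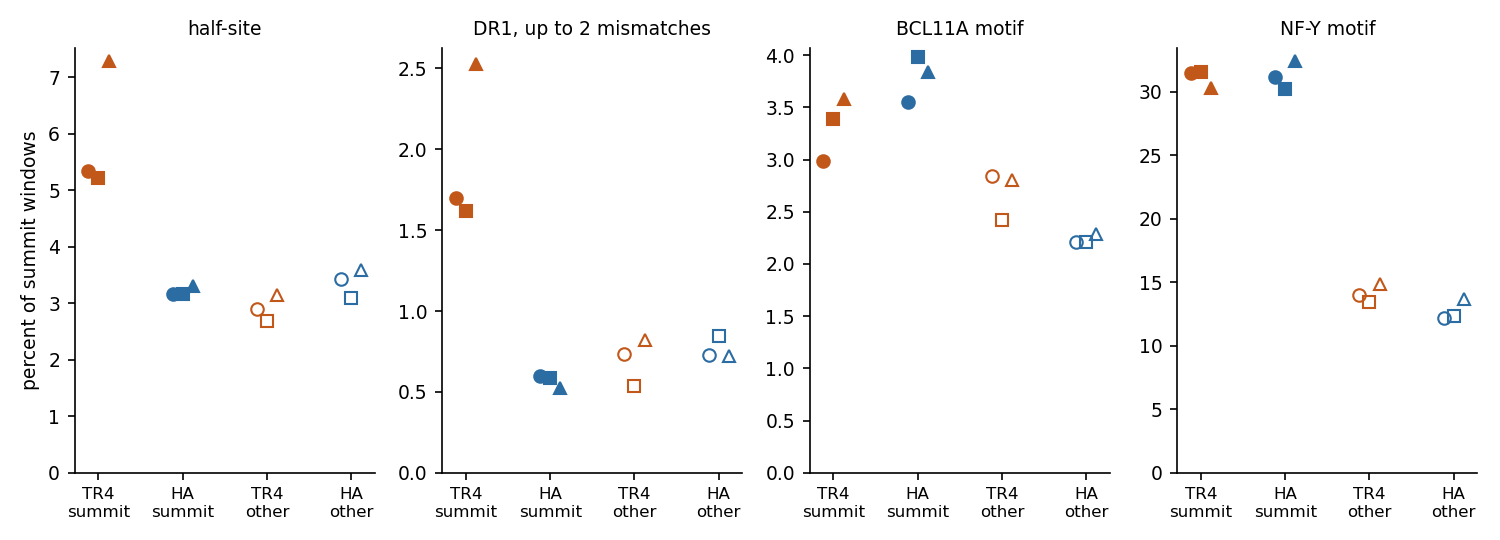
Percent of summit windows (50 bases to each side) that hold each motif in the 3 TR4 libraries (orange) and the 3 HA libraries (blue); open symbols give a stretch of equal length elsewhere in the same promoter. Half-site shares at TR4 summits (5.21% to 7.30%) lie above those at HA summits (3.17% to 3.31%), while NF-Y shares overlap with all peaks.

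By gene, HA regions outnumbered TR4 regions with all peaks, and TR4 regions outnumbered HA regions at equal list length. A TR4 region lay within 1 kb of an end of 5592 protein-coding genes (27.9%) and an HA region of 7781 (38.8%), and 5047 genes (25.2%) had both. A TR4 region with no HA peak at either end marked 209 genes (1.04%), and an HA region with no TR4 peak 1674 (8.35%). With 6944 peaks per list these counts were 1219 genes (6.08%) for TR4 without HA and 696 (3.47%) for HA without TR4, so the larger side changed. A TR4 region then lay at 4358 genes (21.7%) and an HA region at 3662 (18.3%). With all peaks, the TR4 count was 119 or 118 without TR4 replicate 1 or 2 and 326 or 397 without HA replicate 1 or 2, and the HA count was 842 or 802 without HA replicate 1 or 2. The counts of the gene groups are therefore given for all peaks and for equal length, to be read beside these percentages, and no test was made between the lists. A gene's fold is that of its strongest peak at either end, so it can come from a peak other than the one at the printed start. The activity of genes was not measured.

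Genes of the mitochondrial respiratory chain had TR4 regions as often as HA regions with all peaks, and at equal length the unshared ones were all TR4 regions. Of 37 genes of complexes II to V, 31 had a TR4 region and 29 an HA region, 27 had both, 1 had TR4 without HA and 1 HA without TR4. At equal length 9 of the 37 (24.3%) had TR4 without HA and 0 had HA without TR4. With all peaks the TR4 count was 3 without HA replicate 1 and 2 without HA replicate 2, and the HA count was 0 without either of them and 2 without TR4 replicate 2. SDHD was the gene with TR4 and no HA peak in clone TB, and UQCRC2, a complex III core subunit, had HA folds of 8.63 and 9.85 in replicates 1 and 2 and no TR4 peak. ATP5PF, a stalk subunit of ATP synthase, had TR4 folds of 316, 328 and 229 and HA folds of 19.3, 19.8 and 12.1, which put it at mean percentiles of 99.9 in the TR4 lists and 89.0 in the HA lists. ATP5ME, another ATP synthase subunit, had TR4 folds of 266, 263 and 107 and no HA peak among the strongest 6944.

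Complex I, which oxidises NADH, had a TR4 region at 19 and an HA region at 19 of 37 genes, 15 of them both. TR4 without HA was found at 2, NDUFA12 and NDUFA13, and HA without TR4 at 2, NDUFAB1 and NDUFB10. At equal length 5 had TR4 without HA (13.5%) and 0 HA without TR4. With all peaks the TR4 count was 1 without TR4 replicate 1 or 2, and the HA count was 0 without HA replicate 1 or 2. One of the 5 was NDUFC1, with TR4 folds of 173, 200 and 116. NDUFB7, a shared gene, had TR4 folds of 286, 280 and 149 and HA folds of 21.8, 21.1 and 7.74. NDUFV3 had TR4 folds of 27.8, 25.3 and 14.98 and HA folds of 39.3, 50.9 and 34.6, the reverse order of percentiles (84.3 in TR4 lists and 99.4 in HA lists).

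Mitochondrial ribosomal proteins, which build the ribosome that translates the mitochondrial genome, had a TR4 region at 44 and an HA region at 52 of 77 genes. TR4 without HA was found at 5 genes, among them MRPL43, MRPL53 and MRPL20, and HA without TR4 at 7, among them MRPS34 and MRPL58. MRPL53 had TR4 folds of 114, 119 and 63.6, and MRPL20 had 94.1, 88.2 and 67.8. MRPS34 had HA folds of 11.9, 10.5 and 7.81. At equal length TR4 without HA was found at 12 genes (15.6%) and HA without TR4 at 1 (1.30%). With all peaks the TR4 count was 3 without TR4 replicate 1 or 2, and the HA count was 1 without HA replicate 1 or 2 and 13 without TR4 replicate 2.

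Cytosolic ribosomal proteins and nucleolar factors also had many shared regions. Of 86 cytosolic ribosomal protein genes, 50 had a TR4 region, 70 an HA region and 47 both, with TR4 without HA at 2 and HA without TR4 at 13. At equal length the unshared counts were 10 for TR4 (11.6%) and 8 for HA (9.30%), and with a peak needed in 3 of 3 libraries they were 1 and 2. With all peaks the TR4 count was 1 without TR4 replicate 1 or 2, and the HA count was 3 or 2 without HA replicate 1 or 2. The strongest TR4 peaks at the ends of RPLP0 had folds of 107, 101 and 42.7, higher than those at its start. Of 31 nucleolar genes of ribosome biogenesis, 17 had a TR4 region and 24 an HA region. TR4 without HA was found at 1 gene and HA without TR4 at 4, and at equal length at 7 (22.6%) and 1 (3.23%). With all peaks the TR4 count was 2 without HA replicate 1, and the HA count was 2 without HA replicate 1 or 2 and 8 without TR4 replicate 2. UTP4, of the small subunit processome, had TR4 folds of 49.3, 34.3 and 41.9 and no HA peak. NOP2, an rRNA methyltransferase, had TR4 folds of 224, 222 and 93.2 and HA folds of 18.6, 20.9 and 13.5.

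Among erythroid transcription factors the unshared genes that were found were HA genes at both list lengths. Of 20 erythroid transcription factors, 4 had a TR4 region, and all 4 of these also had an HA region. An HA region was found at 15, and 7 of these had a TR4 peak that made no TR4 region. TR4 without HA was found at 0 of 20, and HA without TR4 at 4 of 20, GATA1, TAL1, LMO2 and NFE2. Of all protein-coding genes 1.04% and 8.35% were such. At equal length TR4 without HA was found at 0 and HA without TR4 at 8 (40.0%), beside 6.08% and 3.47% of all genes. A count of 0 among 20 genes is near both TR4 shares of all genes. GATA1, the master regulator of red cell differentiation (chromosome X, 48786590 to 48794311), had HA folds of 15.3, 20.0 and 12.3, and TAL1, its partner (chromosome 1, 47216290 to 47232335), had 11.1, 11.9 and 6.00. NFE2, a basic leucine zipper factor of globin genes, had HA folds of 15.8, 16.1 and 8.93. KLF1, the activator of the adult β-globin gene, was shared, with TR4 folds of 17.9, 12.2 and 10.3 and HA folds of 28.6, 21.7 and 14.5. Without TR4 replicate 1, 2 or 3 the HA count was 5, 8 and 4, and without any 1 HA replicate it was 4.

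Signalling genes mostly had regions of both antibodies or HA regions, and membrane genes rarely had a TR4 region. Of 20 genes of erythropoietin and KIT signalling, 11 had a TR4 region, 18 an HA region and 10 both, with TR4 without HA at 0 and HA without TR4 at 4. At equal length the counts were 1 for TR4 without HA (5.0%) and 6 for HA without TR4 (30.0%). KIT, the receptor for stem cell factor, had HA folds of 8.28, 9.98 and 7.76, and SOCS1, a feedback inhibitor of cytokine signalling, had 15.6, 13.1 and 5.58. EPOR, the erythropoietin receptor (chromosome 19, 11377207 to 11384314), was shared, with TR4 folds of 19.7, 20.6 and 8.99 and HA folds of 54.2, 64.7 and 57.7. Those put it at mean percentiles of 72.3 in the TR4 lists and 99.8 in the HA lists. Of 25 red cell membrane genes, 2 had a TR4 region and 13 an HA region, with TR4 without HA at 0 and HA without TR4 at 8 (32.0%). At equal length they were 0 and 3 (12%) in the same order. Without TR4 replicate 1 or 2 the TR4 regions numbered 7 in the signalling list and 0 in the membrane list. SPTB, erythroid β-spectrin, had HA folds of 11.95, 10.0 and 9.29, and GYPC, glycophorin C, had 7.22, 16.02 and 8.57.

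**Figure D4:**
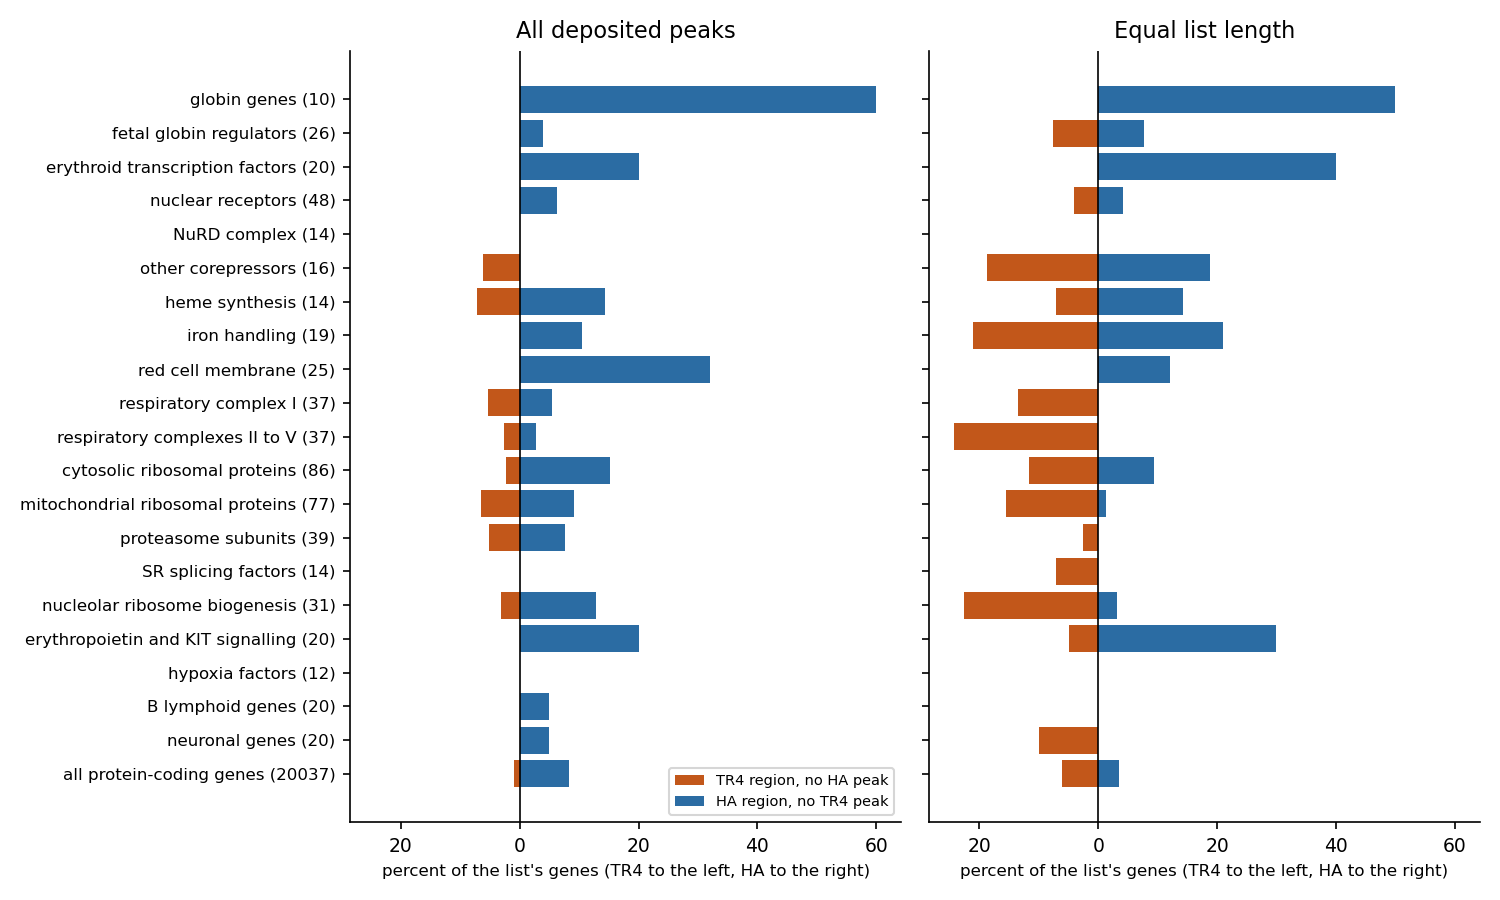
Percent of each gene list (number of genes in brackets) with a TR4 region and no HA peak (orange, to the left) and with an HA region and no TR4 peak (blue, to the right), for all deposited peaks and for 6944 peaks per list; 390 olfactory receptor genes are not drawn. At equal length the respiratory and mitochondrial ribosomal lists reach to the left and the globin, erythroid factor and signalling lists to the right, beside 6.08% and 3.47% of all genes.

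Heme and iron genes were divided. Of 14 heme synthesis genes, 8 had a TR4 region and 12 an HA region. UROS, an enzyme of heme synthesis (chromosome 10, 125784980 to 125823258), had TR4 folds of 41.7, 49.1 and 37.2 and no HA peak. TMEM14C, a transporter of protoporphyrinogen, had HA folds of 12.02, 21.1 and 13.9 and no TR4 peak, and CPOX, another enzyme of the pathway, had HA folds of 7.72, 3.43 and 3.55. At equal length TR4 without HA was found at 1 heme gene, UROS, and HA without TR4 at 2, TMEM14C and ABCB6. FECH had TR4 folds of 14.2, 10.0 and 17.97 and HA folds of 17.2, 20.5 and 14.5. Of 19 iron handling genes, 12 had a TR4 region and 18 an HA region, with TR4 without HA at 0 and HA without TR4 at 2, and at equal length each side had 4 unshared genes (21.1%). The 4 of TR4 were NCOA4, SLC11A2, ISCU and NFS1, and the 4 of HA were TFRC, TFR2, FTH1 and STEAP3. ISCU and NFS1 act in iron-sulfur cluster assembly, while TFRC encodes the transferrin receptor and FTH1 the ferritin heavy chain. NFS1 had TR4 folds of 83.5, 65.3 and 26.8, and TFRC had HA folds of 23.2, 14.7 and 17.2. The genes named at equal length, here and for the respiratory chain, were chosen after their values were seen.

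Regulators of the fetal globin genes were mostly shared, as were most genes with a TR4 region. Of all 5592 protein-coding genes with a TR4 region, 5047 also had an HA region. For genes with an HA region, the share with a TR4 region was 64.9% over all genes. It was 81.8% for fetal globin regulators, 100% for NuRD, 63.6% for other corepressors and 64.7% for nuclear receptors. These shares were not tested. Of 26 fetal globin regulators, 18 had a TR4 region, 22 an HA region and 18 both, and HA without TR4 was found at NFIX alone, with HA folds of 31.0, 43.5 and 28.3. At equal length 14 had both, with TR4 without HA at NR2C1 and EHMT1 and HA without TR4 at NFIX and KDM1A. NR2C2, the gene of TR4 itself (chromosome 3, 14947583 to 15049273), had TR4 folds of 112, 113 and 55.5 and HA folds of 18.9, 27.5 and 14.4. NR2C1, the gene of TR2 (chromosome 12, 95020229 to 95073618), had TR4 folds of 92.0, 138 and 86.4, and HA folds of 9.16 and 7.67 in replicates 1 and 2 only. BCL11A had TR4 folds of 8.22 and 9.59 in replicates 1 and 2 and HA folds of 12.1, 19.4 and 7.43. No library of either antibody had a peak at LIN28B, which encodes an RNA-binding protein of fetal cells. ZBTB7A, a second repressor of γ-globin, had TR4 folds of 14.4, 20.8 and 17.97 and HA folds of 24.2, 21.6 and 11.7. Of 14 NuRD genes, 9 had a TR4 region and the same 9 genes an HA region, and neither antibody had an unshared gene at either list length. Of all genes, 1.04% were TR4 without HA and 8.35% HA without TR4, and 6.08% and 3.47% at equal length. In a list of 14 genes an empty class is near those shares. Of 16 other corepressors, 8 had a TR4 region, 11 an HA region and 7 both, and GPS2, a subunit of the NCoR complex, had TR4 folds of 83.6, 59.5 and 28.8 and no HA peak. The TR4 count of that list was 5 without TR4 replicate 1 and 4 without TR4 replicate 2, and at equal length 3 genes had both, 3 TR4 without HA and 3 HA without TR4. Of 48 nuclear receptor genes, 11 had a TR4 region, all of them shared, and 17 an HA region. HA without TR4 was found at RXRA, NR1H3 and NR0B2, 1 gene without HA replicate 1 or 2 and 5 genes without TR4 replicate 2. At equal length each side had 2 unshared nuclear receptor genes. RXRA, the common partner of other nuclear receptors, had HA folds of 10.4, 9.19 and 6.58.

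The globin loci held HA peaks with few TR4 peaks. Regions of both antibodies were 3 stretches upstream or downstream of the β-globin genes, and in the α-globin locus those at HBA1, NPRL3 and POLR3K. Some other HA regions of the α-globin locus had a TR4 peak in 1 library. Among these was the region at HBA2, with a TR4 fold of 6.45 in replicate 2 and HA folds of 11.9, 22.5 and 17.8. Of 10 globin genes, 1 had a TR4 region and 8 an HA region, with HA without TR4 at 6 (60.0%) and at 5 (50.0%) at equal length. HBG1 had HA folds of 17.2, 19.8 and 18.4, HBG2 had 25.9, 17.7 and 15.998, and HBB, the adult β-globin gene, had 13.2, 14.6 and 8.51, and none of the 3 genes had a TR4 peak. In clone B, the regions at HBG1 and HBG2 each had a peak in 1 of 3 HA libraries and 1 of 3 MYC libraries, and the 2 at HBB in 2 and in 3 of 3 HA libraries. HBG1 and HBG2 are near-identical copies, as are HBA1 and HBA2, so the split of reads within each pair is uncertain. HBA1 was the gene with a TR4 region, which it lost without TR4 replicate 1 or 2, with TR4 folds of 10.6 and 9.28 in replicates 1 and 2 and HA folds of 28.4, 30.4 and 22.3. The stretch of chromosome 11 from 5280584 to 5281046, 10639 bases beyond HBE1, had TR4 folds of 15.2, 17.9 and 23.96 and HA folds of 43.5 in each library. Farther out, the region from 5284603 to 5284977 had HA folds of 10.0, 18.8 and 3.83. That from 5288107 to 5288409 had HA folds of 15.1, 24.9 and 8.29. Neither had a TR4 peak in clone TB, and each had one in 1 of 3 TR4 libraries of clone T. From 5275788 to 5276169, TR4 replicates 2 and 3 had folds of 7.20 and 4.79 and the HA libraries 32.1, 32.8 and 12.4. From 5204828 to 5205182, at the other side of the genes, TR4 replicates 1 and 3 had folds of 9.32 and 8.26 and the HA libraries 15.6, 8.85 and 17.05. Between HBD and HBG1, the region from 5243518 to 5243928 had HA folds of 16.6, 18.2 and 14.5 and no TR4 peak, and in clone B a peak in 1 of 3 HA libraries. In the α-globin locus on chromosome 16, the region from 142977 to 143533 before HBZ had HA folds of 11.8, 10.4 and 8.89. It had no TR4 peak in clone TB, but 2 of the 3 TR4 libraries of clone T had a peak there. The region from 138336 to 138886, at the start of NPRL3, had TR4 folds of 12.2, 7.92 and 6.01 and HA folds of 7.62, 9.87 and 7.10. At POLR3K, from 53514 to 53960, TR4 replicates 1 and 2 had folds of 5.44 and 7.89 and the HA libraries 7.18, 11.8 and 3.30. Inside NPRL3, the region from 113298 to 113853 was left out for an IgG peak. Its TR4 folds were 10.5, 10.6 and 8.99 and its HA folds 21.8, 20.5 and 15.1.

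The TR4 libraries of clone T and the HA libraries of clone B, whose peaks helped set region bounds but were not counted in assigning the classes, differed in the same direction. TR4 regions without HA had a peak in 61.6%, 84.4% and 28.4% of cases in the TR4 libraries of clone T, and in 19.1%, 27.4% and 2.40% in the HA libraries of clone B. The groups did not overlap (exact permutation test, two-sided, p = 0.1, the smallest possible), and both lows were in replicate 3, which had the shortest list of its group. HA regions without TR4 had a peak in 5.15%, 16.3% and 1.95% of cases in TR4 libraries of clone T and in 76.1%, 77.8% and 37.6% in HA libraries of clone B (exact permutation test, p = 0.1). With classes drawn from regions merged without the TR4, HA and MYC libraries of clones T and B, an alternative added after seeing the data, TR4 regions without HA numbered 1102. Those had a peak in 62.3%, 84.7% and 29.0% of cases in TR4 libraries of clone T and 18.97%, 26.9% and 2.54% in HA libraries of clone B. The 9199 HA regions without TR4 had one in 5.10%, 16.2% and 1.90% and in 76.2%, 78.0% and 37.6% of cases in the same order (exact permutation test, p = 0.1 for each class). Shared regions of the whole merge had one in 72.1% ± 21.8 and 86.7% ± 15.9 (SD, n = 3 each; exact permutation test, p = 0.5). With the MYC antibody, TR4 regions without HA had a peak in 58.2% ± 27.2 of cases in clone T and 19.6% ± 14.4 in clone B, with overlap between the groups (exact permutation test, p = 0.2). HA regions without TR4 had one in 10.1% ± 7.19 in clone T and 66.0% ± 23.1 in clone B (SD, n = 3 each; exact permutation test, p = 0.1). In clone TB itself, where both proteins carry the MYC tag, MYC libraries had a peak at 75.2% ± 9.85 of TR4 regions without HA, 98.6% ± 1.26 of shared regions and 67.6% ± 8.30 of HA regions without TR4 (SD, n = 3 each). Peaks of the other protein were not absent: 33.5% of TR4 regions without HA had a peak in at least 1 HA library of clone B, and 18.1% of HA regions without TR4 in at least 1 TR4 library of clone T.

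**Figure D5:**
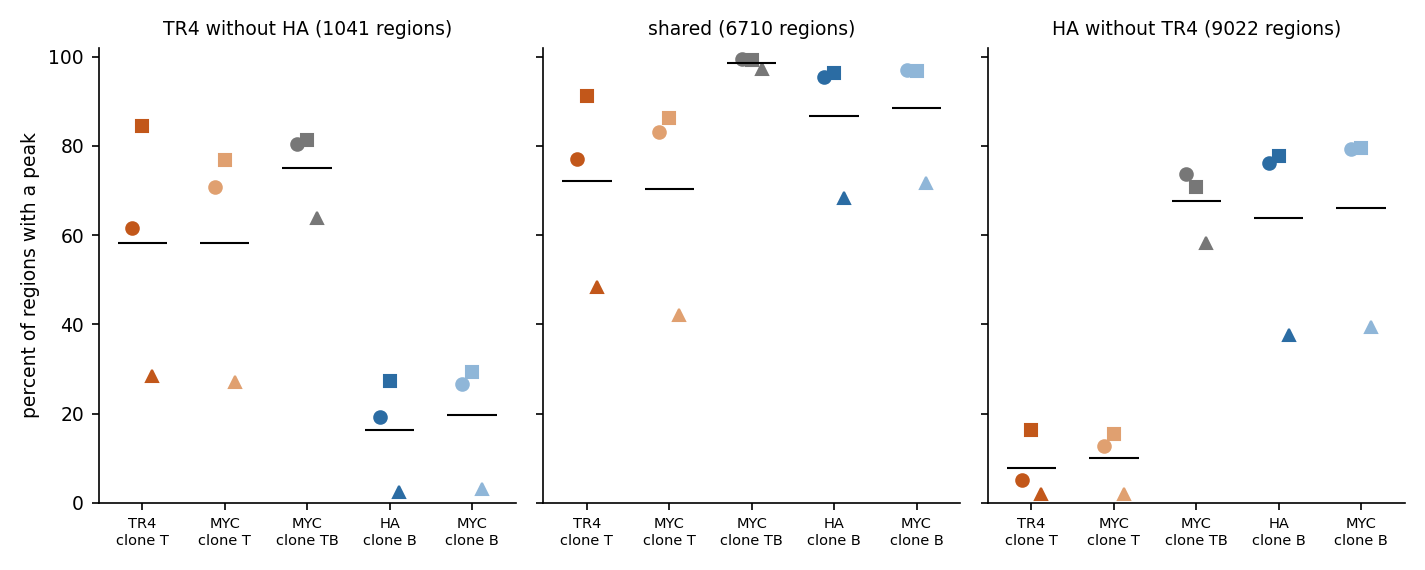
Percent of the regions of each class with a peak in libraries that were not counted in assigning the class: TR4 and MYC in clone T, MYC in clone TB, HA and MYC in clone B. Symbols are replicates 1 (circle), 2 (square) and 3 (triangle) and lines are means; TR4 regions without HA have higher shares in TR4 libraries of clone T (28.4% to 84.4%) than in HA libraries of clone B (2.40% to 27.4%), and HA regions without TR4 the opposite.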

How the data were processed

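The build GRCh38 and the tools MACS2 2.1.4, Bowtie2, Trimmomatic, SAMtools and Picard come from the submitters' processing notes, which as seen here give no roles. For every library the authors deposited a list of peaks with a fold enrichment (a linear ratio), a −log10 q-value and the offset of the summit from the peak start (other), so peaks were called library by library. Folds are the authors' own values and only describe or rank peaks within a list. How duplicate reads were treated could change list length and cannot be seen in the lists.

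From the lists, peaks of all 24 libraries were merged at 1 shared base into 79570 regions, and the 7349 with an IgG peak were left out. Gene positions and promoters came from RefSeq (GRCh38.p14, 20037 protein-coding genes); starts with strand were at hand for 15843, none of them on 1 chromosome. Comparisons used exact permutation tests over libraries, Benjamini-Hochberg adjusted over 11 measures or 10 motifs, in Python 3.11.15 (numpy 2.4.6, pandas 2.3.3, scipy 1.17.1). Functions were tested on simulated lists with planted classes. With no genome, motifs were searched in promoter windows only. Intervals that need read depth are not given.

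Named genes are the globin genes, NR2C1, NR2C2, BCL11A, ZBTB7A and LIN28B, and per list up to 4 shared, 3 TR4-without-HA and 4 HA-without-TR4 genes with the highest fold percentiles, plus the 10 strongest regions of each class; the text prints those its comparisons need. Members, lists and motifs were chosen with earlier results of these data known. Deviations of same-numbered libraries of the antibodies had correlations of 0.0164, 0.0032 and 0.0270, so replicate numbers were not used to pair them in the main tests. List length went otherwise, since replicate 3 had the shortest list with both antibodies. Whether replicate number marks a shared block was not tested.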

Additional observations from a re-analysis of the deposited data

Results flagged for a closer look

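With the MYC antibody in clone TB, which can bind both tagged proteins, 229 regions had a peak in 3 of 3 MYC libraries and in none of the 3 TR4, 3 HA or IgG libraries, out of 14451 regions with a peak in all 3 MYC libraries. They were singled out because the comparison of TR4 and HA does not use these libraries. Regions with a peak of IgG, the control, had been left out beforehand, so its absence there was set by that filter. Of the 229, 126 were also MYC regions of clone T or clone B, and 30.6% lay within 1 kb of a gene end.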

How the results depend on the processing

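Counts and overlaps followed list length and the number of libraries required. With each list limited to 6944 peaks, 49.9% of TR4 regions and 48.6% of HA regions were shared; classes held 2284 (TR4 without HA), 3024 (shared) and 2513 (HA without TR4) regions; genes numbered 1219 (TR4 without HA), 2573 (both) and 696 (HA without TR4). The median peak width, TR4 minus HA, then turned to −50.5 bases (exact permutation test, p = 0.3). With a peak in 3 of 3 libraries these were 68.3% and 33.7%, 408, 3445 and 3971 regions, and 115, 2970 and 760 genes. With −log10 q of at least 5, 75.6% of TR4 regions were shared. Leaving out 1 library gave 59.3% to 85.1% of TR4 regions and 24.7% to 46.9% of HA regions shared, 441 to 1441, 4438 to 6575 and 4353 to 10128 regions, and 118 to 397, 3658 to 4972 and 802 to 2232 genes in the same order of classes. The NF-Y share at summits, TR4 minus HA, was −0.16 percentage points, and −0.67 to 0.43 with 1 library left out, with 0.27 without TR4 replicate 3 and 0.43 without HA replicate 3, then 2.44 within 100 bases and −5.40 at equal length, where the groups did not overlap (exact permutation test, p = 0.1). Fewer peaks did not lower every count, since TR4 regions without HA numbered 1041 with all peaks and 2284 at equal length. Causes were not tested.

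The direction of the gene-end share (12.04 to 19.3 percentage points higher with TR4), the half-site share (1.69 to 3.13 points higher), the Jaccard gap (0.182 to 0.281), the summit gap (8.92 to 13.9 bases) and the list length held under every alternative run. So did both unshared classes in clones T and B, with 3 alternatives each. With a replicate block the gene-end difference was 18.6 points (exact sign-flip test, p = 0.25, the smallest possible), and no call changed, since 3 libraries against 3 cannot pass. Equal length gives no value for list length. Depth is unknown, so a missing peak in a short list is not shown to be missing binding.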

Other observations

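The hypoxia, splicing factor and proteasome lists held 0, 0 and 2 genes with TR4 and no HA peak, and 0, 0 and 3 with HA and no TR4 peak, where 1.04% and 8.35% of all protein-coding genes were such. At equal list length the counts were 0, 1 and 1 with TR4 and no HA peak and 0 in each list with HA and no TR4 peak, where 6.08% and 3.47% of all genes were such. All 7 hypoxia factor genes with a TR4 region, of 12, were also among the 8 with an HA region; ARNT, the partner of the hypoxia-inducible factors, had TR4 folds of 22.6, 25.9 and 33.1 and HA folds of 55.8, 51.5 and 34.8, and CUL2, a scaffold of the ligase that degrades them, had 82.0, 82.1 and 95.4 with TR4 and 13.6, 19.7 and 12.4 with HA. All 7 SR splicing factor genes with a TR4 region, of 14, had an HA region too. Of all 5592 protein-coding genes with a TR4 region, 5047 had an HA region as well, so sharing of this kind was common. Of 39 proteasome subunit genes, 22 had a TR4 region, 24 an HA region and 19 both, and PSMB7, a catalytic subunit, had TR4 folds of 101, 101.8 and 53.6 and no HA peak.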
